A study of Mus musculus with 6 samples.

Results

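The stretch described here is the part of mouse chromosome 6 from 55 to 65 Mb (build mm10), which holds 260 accessible regions (peaks) of the 170733 that were tested in the series. A peak was taken if its midpoint lay in this interval and its mean over the 6 libraries was at least 10 normalized reads. Of 282 peaks of any level in the interval, 22 were under that minimum. The stretch was picked because its peaks had been seen to be lower in GFI1-KD cells, so the differences between genotypes in these peaks, and the calls from a fit over all peaks, are given as a description and no test is drawn from them. Within the stretch, 52 peaks were called lower in GFI1-KD than in GFI1-KI cells, 10 were called higher and 198 were not called.

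Accessible chromatin is DNA that is not tightly wrapped in nucleosomes, and it marks gene starts and regulatory elements such as enhancers. Neighbouring elements on a chromosome often share a domain, within which they are active together or silent together. GFI1 is a zinc finger repressor of blood progenitors that recruits histone demethylases and deacetylases and favours the neutrophil over the monocyte fate.

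The assay was ATAC-seq: a transposase, Tn5, cuts DNA where it is open and adds sequencing adapters at the cuts. The cells were granulocyte-monocyte progenitors (GMPs), the bone marrow precursors of neutrophils and monocytes, sorted by flow cytometry from untreated C57BL/6 mice. GFI1-KD mice (genotype GFI1 KD /KD) express human GFI1 at 10 to 20% of its level in place of the mouse gene, and GFI1-KI mice (genotype GFI1 KI /KI) carry human GFI1 in place of murine Gfi1, so neither genotype has the mouse gene. Each genotype had 3 libraries, numbered 1 to 3. The labels used here do not give age or sex and do not say that libraries came from separate animals. The standard errors below are moderated: the spread between libraries at a peak was drawn toward a trend over all tested peaks. That spread may be technical.

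The libraries held 16022763 to 19857646 reads in peaks in GFI1-KD and 19408373 to 27741446 in GFI1-KI. Of 12 GMP marker genes with an annotated start, 10 had a peak there, among them Mpo, Elane, Cebpa, Kit and Irf8, and no start peak was seen at Prtn3 or Fcgr3. Among markers of other cell types the gate could hold, Cd3e, Cd3d, Cd8a, Cd79a, Hbb-bs and Hba-a1 had no start peak. Nkg7, Pax5, Klf1, Epor and all 4 megakaryocyte genes listed did have one. Chromosomes are coded by number in the deposited table, and the code of this stretch was read as chromosome 6, under which 1447 of its 10332 peaks lay within 1 kb of a gene start, against 132 if it was read as chromosome 16.

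A minority of the annotated gene starts in the stretch lay under a peak. Of 80 annotated starts, 20 lay directly under a peak, and for 8 of these 20 the peak was called lower in GFI1-KD, for 0 higher. Ccser1 and A730020E08Rik, which start on opposite strands, share 1 of these peaks. Over all peaks tested, 5.48% were called lower and 4.99% higher, and 10.3% and 6.6% of those with a mean of 250 or more. Gene starts over the whole genome were not counted apart. Accessible starts can be missed, since no annotated start of Lancl2 lies near its strong peak at chr6:57702757-57703522. The 250 bases before the start are shown for 5 of the 20, in the gene's own direction, from RefSeq on GRCm38.p6. Aqp1 (chr6:55336049-55336298, plus strand) and the predicted gene Gm34441 (chr6:55536793-55537042, plus strand) lie under the start peaks with the lowest ratios of GFI1-KD to GFI1-KI. Abcg2 (chr6:58640296-58640545, plus strand) and Pyurf (chr6:57692079-57692328, minus strand) are CG-rich promoters under strong peaks that were called lower, and Gprin3 (chr6:59426307-59426556, minus strand) is the counterpart whose start peak was higher in GFI1-KD. Capitals mark matches, on either strand, to the core motifs AATCAC of GFI1, AGATAA of GATA factors, GAGGAA of PU.1 and CCNCNCCC of KLF factors.
Aqp1: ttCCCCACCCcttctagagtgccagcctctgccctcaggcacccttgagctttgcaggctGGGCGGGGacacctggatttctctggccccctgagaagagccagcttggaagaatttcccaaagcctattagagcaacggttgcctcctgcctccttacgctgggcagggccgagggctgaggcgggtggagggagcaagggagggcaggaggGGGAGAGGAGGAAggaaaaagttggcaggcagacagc
Gm34441: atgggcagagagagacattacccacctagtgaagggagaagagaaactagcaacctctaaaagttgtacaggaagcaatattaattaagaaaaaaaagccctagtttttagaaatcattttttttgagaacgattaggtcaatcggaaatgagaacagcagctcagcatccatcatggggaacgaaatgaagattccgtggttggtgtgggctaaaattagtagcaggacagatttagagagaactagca
Abcg2: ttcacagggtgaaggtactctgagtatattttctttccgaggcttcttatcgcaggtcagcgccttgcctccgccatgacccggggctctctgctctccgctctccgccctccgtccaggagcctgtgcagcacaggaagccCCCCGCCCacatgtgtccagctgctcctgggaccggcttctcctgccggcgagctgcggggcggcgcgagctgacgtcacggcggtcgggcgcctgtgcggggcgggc
Pyurf: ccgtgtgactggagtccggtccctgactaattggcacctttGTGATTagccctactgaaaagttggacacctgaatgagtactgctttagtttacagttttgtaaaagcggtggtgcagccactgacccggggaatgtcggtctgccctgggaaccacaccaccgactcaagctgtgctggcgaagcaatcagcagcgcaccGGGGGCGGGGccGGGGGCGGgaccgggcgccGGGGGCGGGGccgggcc
Gprin3: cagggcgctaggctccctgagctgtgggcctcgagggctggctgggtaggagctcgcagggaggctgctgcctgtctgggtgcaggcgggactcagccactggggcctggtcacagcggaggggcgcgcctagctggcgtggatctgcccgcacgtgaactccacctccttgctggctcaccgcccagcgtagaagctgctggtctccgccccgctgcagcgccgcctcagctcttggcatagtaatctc

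A GFI1 core was found in 1 of the 20 promoters, that of Pyurf, at -209 from the start, while 9.1% of all 32851 annotated promoters hold one. A GATA core was found in 1 of 20 (Lsm5), against 10.0% of all promoters. The PU.1 core was found in 5 of 20, against 23.3% of all, and the KLF core in 11 of 20, against 45.9%. The Aqp1 promoter holds 3 KLF matches and 1 PU.1 match, and the PU.1 match, at -30 from the start, overlaps a KLF match. These 20 promoters had a median of 13.5 CG pairs, compared with 2.5 over all gene starts of the stretch and 6 over all annotated promoters. A match is a run of letters, and it does not show that a factor binds there.

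As a whole the stretch was less accessible in GFI1-KD cells. Its peaks took 0.0954%, 0.0982% and 0.0987% of all reads in peaks in GFI1-KD libraries 1 to 3, against 0.1059%, 0.1139% and 0.1122% in GFI1-KI libraries 1 to 3. Every GFI1-KD library lay below every GFI1-KI library. The means were 0.0974 ± 0.0018% in GFI1-KD and 0.1107 ± 0.0042% in GFI1-KI (SD, n = 3 each), a ratio of 0.88. Measured against reads on chromosome 6 alone, the shares were 1.85 ± 0.0158% in GFI1-KD and 2.09 ± 0.066% in GFI1-KI, a ratio of 0.885. Fewer cells with a region open and a smaller opening in each cell cannot be told apart in bulk libraries.

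The lower level was spread over many peaks. The median log2 fold change of GFI1-KD over GFI1-KI, on the log2(value + 1) scale, was -0.27 over the 260 peaks, against -0.05 over all peaks tested. It was -0.03 over the 1022 peaks of the 10 Mb before the stretch and -0.11 over the 636 peaks of the 10 Mb after it. Of the 260 peaks, 188 (72.3%) had a value below 0, against 56.5% of all peaks. By library, the median deviation of the 260 peaks from the GFI1-KI mean was -0.30, -0.30 and -0.24 in GFI1-KD libraries 1 to 3, and -0.06, 0.09 and -0.02 in GFI1-KI libraries 1 to 3. All 3 GFI1-KD libraries therefore sat below the GFI1-KI libraries by similar amounts.

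A peak was called at a limma adjusted p under 0.05 over all 170733 tested peaks. In the stretch 23.8% of peaks were called, against 10.5% of all peaks tested. The calls lower in GFI1-KD made up 20.0% of the stretch and 5.48% of all peaks, and the calls higher made up 3.8% of the stretch and 4.99% of all peaks. The genotypes did not overlap in 43.5% of the 260 peaks (21 higher and 92 lower in GFI1-KD), against 28.8% of all peaks. Because the stretch was chosen on this same contrast, nothing further is read from these shares. The 52 lower calls became 25 without GFI1-KI 2 and 29 without GFI1-KI 3, and the 62 calls in all became 32 and 36. Over all peaks tested, the lower calls became 2940 and 3392 of 9352 in the same fits, and all calls 7245 and 6996 of 17872. On reads recovered from the values, edgeR called 68 of the 260 peaks, against 12.6% of all peaks, and DESeq2 called 35, against 7.3% of all peaks to which it gave an adjusted p, which 52 of the 260 did not get. GFI1-KI 1 was the lowest of the GFI1-KI libraries in 126 of the 260 peaks (48.5%), compared with 32.2% of all peaks, and without it the median was -0.33.

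The peaks of the stretch were weaker than others and similar in length. They had a median mean of 30.9 normalized reads and a median length of 249 bases, against 44.7 normalized reads and 260 bases over all peaks. The lower median was present at every level: peaks whose mean was 10 to 20, of which there were 84, had -0.36, and it was -0.27 for 101 peaks of 20 to 50, -0.24 for 53 peaks of 50 to 250 and -0.18 for 22 peaks of 250 or more. Over all peaks the medians at these levels were -0.08, -0.05, -0.03 and -0.08. It was also present in each class of position, with -0.19 for 38 peaks within 1 kb of a gene start (0 higher, 8 lower), -0.29 for 120 peaks inside a gene body (3 higher, 25 lower) and -0.32 for 102 peaks between genes (7 higher, 19 lower). Peaks near a start that is not annotated, such as those at the edge of Lancl2, count as gene body. Exons, introns and UTRs were not told apart.

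**Figure D1:**
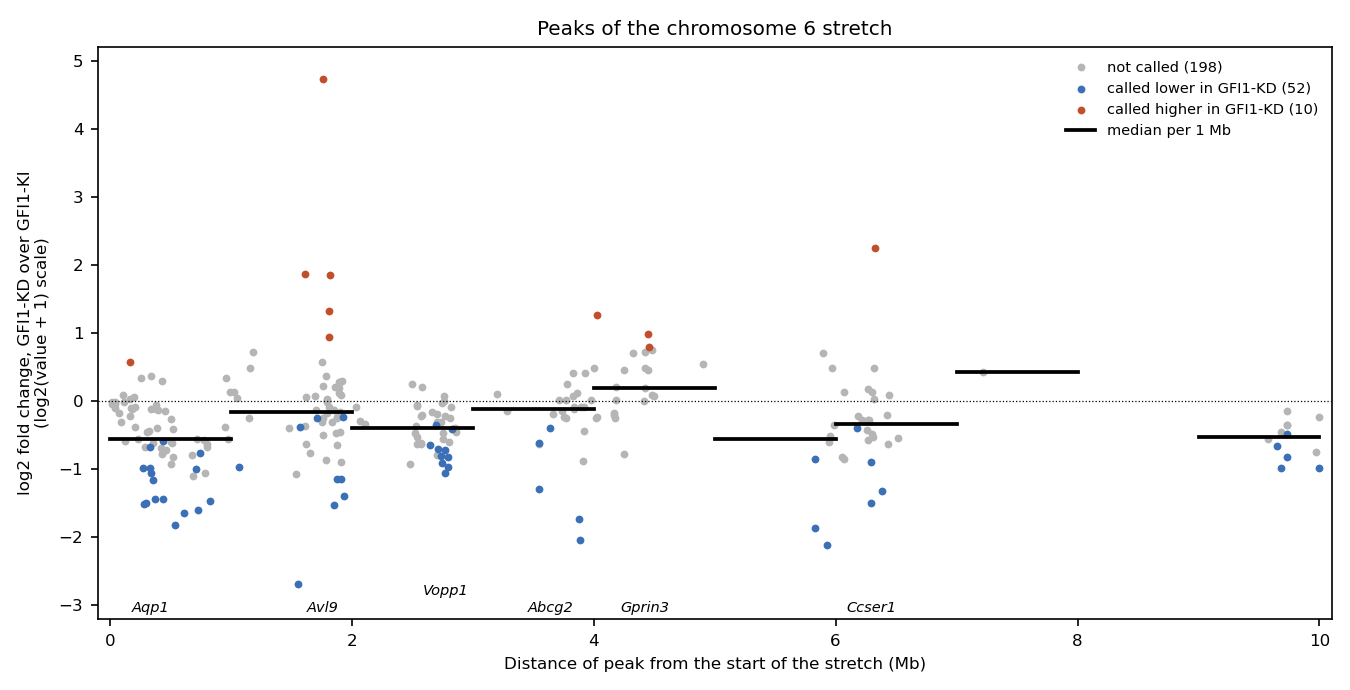
Each point is 1 of the 260 peaks, placed by its distance from the start of the stretch in Mb (horizontal axis) and its log2 fold change of GFI1-KD over GFI1-KI on the log2(value + 1) scale (vertical axis); bars are medians per 1 Mb. Most points lie under 0, with 52 called lower and 10 called higher, and the highest, at 4.72, is the peak inside Avl9.

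Along the stretch, the median differed from window to window. The first Mb (55 to 56 Mb, from Gars to Itprid1) had 68 peaks with a median of -0.55, of which 16 were called lower and 1 higher. Its median was the third lowest of 1780 windows of 1 Mb genome-wide with at least 20 tested peaks, and the lowest of 108 such windows on chromosome 6. The window from 57 to 58 Mb (43 peaks, among them those of Ppm1k, Herc6, Lancl2 and Vopp1) had a median of -0.39 with 10 lower and 0 higher, and the window from 61 to 62 Mb (24 peaks, Ccser1) had -0.34 with 4 lower and 1 higher. The window from 64 to 65 Mb, in which Atoh1 lies, had 12 peaks, which were all below 0, with a median of -0.52 and 5 called lower.

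The other windows had smaller median differences, held few peaks or ran the other way. From 56 to 57 Mb (55 peaks, among them those of Pde1c, Avl9, Fkbp9, Nt5c3 and Vmn1r4) the median was -0.15, with 9 peaks called lower and 5 called higher. From 58 to 59 Mb (27 peaks, Abcg2 and Herc3) it was -0.12, with 5 lower and 0 higher. From 59 to 60 Mb the direction was the opposite: 22 peaks from Fam13a to Gprin3 had a median of 0.20, with 3 called higher and 0 lower, which put this window at place 1746 of 1780 from the lowest. The sparse window from 60 to 61 Mb held 8 peaks with a median of -0.56, of which 3 were called lower and 0 higher. The window from 62 to 63 Mb held 1 peak, and there was none from 63 to 64 Mb.

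**Figure D2:**
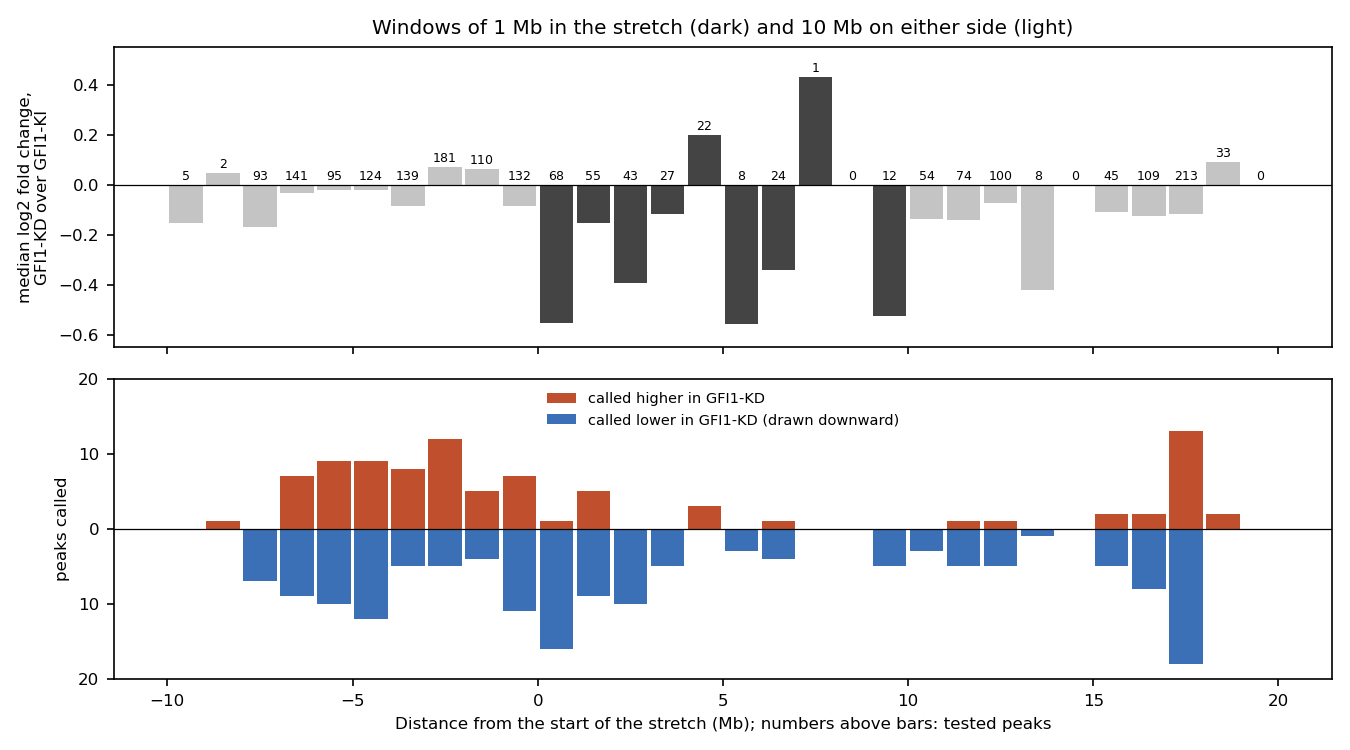
Upper panel: median log2 fold change of GFI1-KD over GFI1-KI per window of 1 Mb, in the stretch (dark bars) and in 10 Mb on either side (light bars), against distance from the start of the stretch, with the number of tested peaks above each bar. Lower panel: peaks called higher (upward) and lower (downward) in GFI1-KD. In the first Mb of the stretch, 16 of 68 peaks were lower (23.5%) and 1 higher (1.5%). The 10 Mb before it had 63 lower (6.2%) and 58 higher (5.7%) of 1022 peaks.

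Runs of neighbouring peaks that were all below 0 covered a large part of these blocks. The longest comprised 24 peaks in a row, from 55437865 to 55951020, at Adcyap1r1, Neurod6 and Itprid1, with a median of -0.74 and 8 called lower. Nearer the start of the stretch, 10 peaks in a row at Mindy4 and Aqp1, from 55276542 to 55336601, had a median of -0.82 and 6 called lower. Nearly adjoining runs of 13 and 12 peaks, from 57641797 to 57859993, spanned Herc6, Pyurf, Lancl2, Vopp1 and Vmn1r21, with 5 called lower in each.

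The edges of the stretch were set at round positions. The last peak before 55 Mb had a log2 fold change of -0.26 and the first peak inside had -0.05, and the last peak inside had -0.24 and the first after 65 Mb had -0.15. When the stretch was taken from 54 to 64 Mb, its median was -0.19 and 17 peaks were called higher. Without the 68 peaks of the first Mb, which were left out as a check chosen after the data were seen, the other 192 peaks had a median of -0.24, with 36 called lower and 9 higher.

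**Figure D3:**
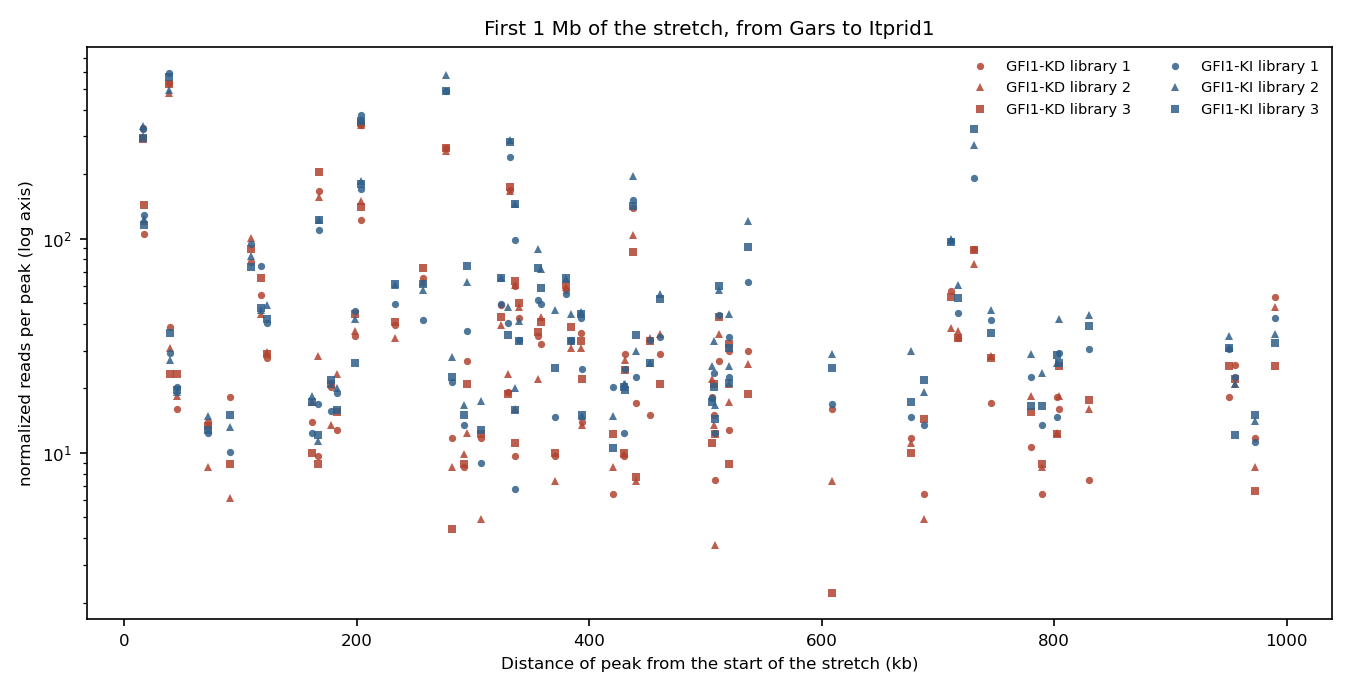
Normalized reads per peak (log axis) in each library for the 68 peaks of the first Mb, by distance from the start of the stretch in kb. Red symbols are the 3 GFI1-KD libraries and blue symbols the 3 GFI1-KI libraries; at the strong peak inside Mindy4 and at the one beyond Neurod6 the blue symbols lie clearly above the red ones, while at the first peaks, before and at the start of Gars, they overlap.

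By gene, 244 of the 260 peaks were assigned to the protein-coding gene they overlapped or to the nearest within 50 kb, which gave 41 genes, and 153 peaks lay inside a gene. Of the 24 genes with at least 5 peaks, 21 had a median below 0. The exceptions were Nt5c3, Fam13a and Gprin3. A peak assigned to a gene need not regulate that gene.

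**Figure D4:**
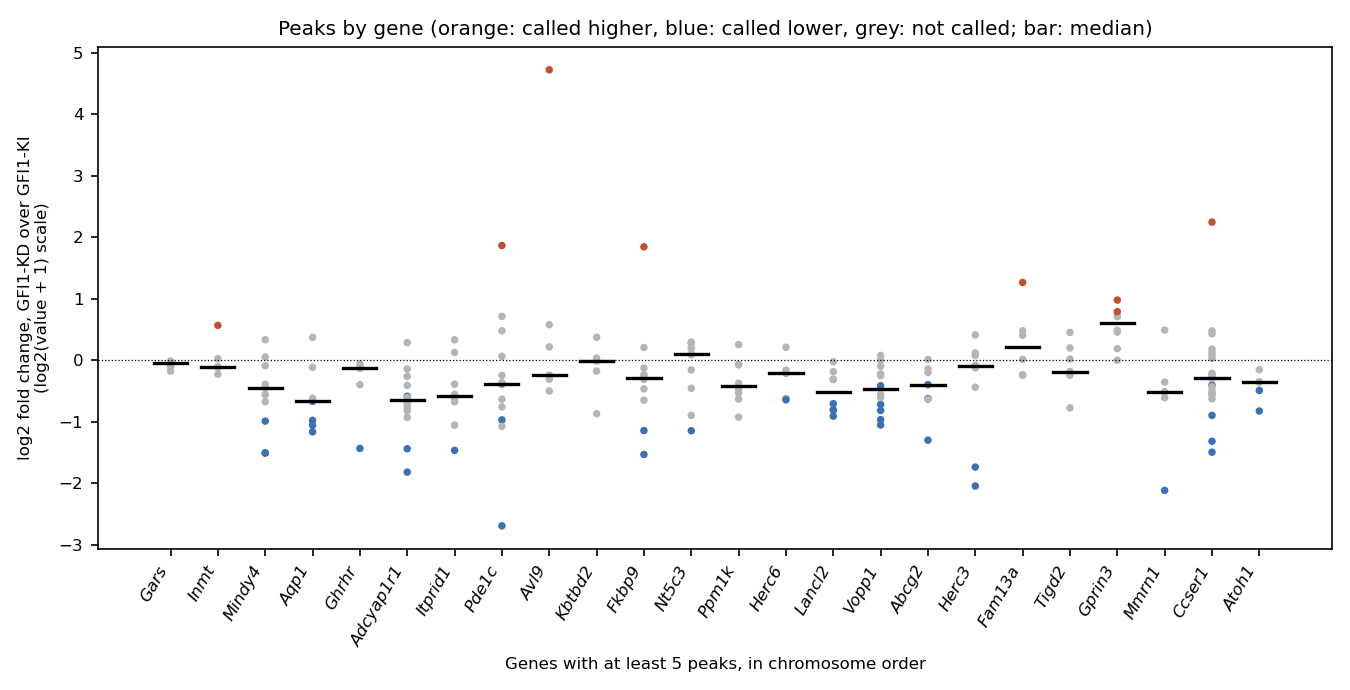
Log2 fold change of GFI1-KD over GFI1-KI for the peaks of each gene with at least 5 peaks, in chromosome order; points are peaks (orange called higher, blue called lower, grey not called) and bars are medians. Adcyap1r1, at -0.65, and Aqp1, at -0.67, have the lowest medians, and Gprin3, at 0.60, has the highest.

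Among 6 genes with known roles in blood or immune cells (Aqp1, Mmrn1, Abcg2, Herc6, Ppm1k and Nt5c3), 44 peaks were present, of which 10 were called lower, 0 higher and 34 neither. Their median was -0.38. By share, 22.7% were called lower, against 20.0% over the stretch and 5.48% of all peaks tested. The list is thus described as part of the stretch and not set apart from it. Aqp1 encodes a water channel of red cell and kidney membranes, and 4 of its 7 peaks were called lower. The peak over its start (chr6:55336155-55336601) held 59.9, 60.5 and 63.2 normalized reads in GFI1-KD libraries 1 to 3, against 99.1, 146 and 146 in GFI1-KI libraries 1 to 3. The GFI1-KD values were close to each other and all below the lowest GFI1-KI value, and the log2 fold change was -1.05 ± 0.17 (SE). Peaks 4.6 kb before the gene (-0.67) and 7.5 kb after it (-1.16) were also called lower, whereas a peak inside the gene was higher in all 3 GFI1-KD libraries and was not called (0.37).

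Summed accessibility at the starts of marker genes was lower in GFI1-KD for the red cell and megakaryocyte lists, and likewise for the progenitor and the T and NK lists. Summed over 4 start peaks at Klf1 and Epor, the erythroid list held 786 to 859 normalized reads in GFI1-KD, against 955 to 1063 in GFI1-KI, with 1 of 4 peaks called lower; Hbb-bs and Hba-a1 had no start peak. The megakaryocyte list held 894 to 1088 in GFI1-KD, against 1186 to 1426 in GFI1-KI, with 3 of 7 peaks called lower. These calls were at Itga2b and Gp1bb, while at Gp9 and Pf4 the genotypes overlapped and no peak was called. Over all peaks tested, 5.48% were called lower. The progenitor list itself held 8128 to 8682 in GFI1-KD, against 8868 to 9439 in GFI1-KI, with 3 of 17 peaks called lower, of which 2 are at Gfi1, the engineered gene. The T and NK list, of which Nkg7 alone had a start peak, held 275 to 314 in GFI1-KD, against 316 to 353 in GFI1-KI, and the B list, of which Pax5 alone did, held 16.04 to 25.5 in GFI1-KD, against 16.9 to 22.7 in GFI1-KI. The part of these cells in the values of Aqp1 and Mmrn1 was not tested.

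Abcg2 encodes an efflux pump known as a marker of blood stem cells, and 3 of its 7 peaks were called lower. The peak over its start (chr6:58640192-58640995) held 260.0, 221 and 247 normalized reads in GFI1-KD, against 315, 313 and 328 in GFI1-KI. The genotypes did not overlap there, and the log2 fold change was -0.39 ± 0.10 (SE). A weak peak 40.8 kb before the gene body held 8.56, 6.17 and 12.2 in GFI1-KD, against 19.1, 28.0 and 21.9 in GFI1-KI, with a log2 fold change of -1.30. Its call was lost without GFI1-KD 2, GFI1-KI 2 or GFI1-KI 3, and without the variance trend.

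Mmrn1 encodes multimerin, a protein of platelets and vessel walls, and its peaks differed among themselves. The one over its start held 9.63, 16.04 and 7.76 normalized reads in GFI1-KD, against 15.8, 21.9 and 13.6 in GFI1-KI, so the genotypes overlapped. A peak inside the gene, from 60966963 to 60967327, was the strongest and ran the other way, with 97.4, 70.3 and 87.6 in GFI1-KD, against 75.4, 51.7 and 54.4 in GFI1-KI. Its log2 fold change of 0.49 ± 0.18 (SE) was not called, although it was called by edgeR, with other scalings of the libraries and without GFI1-KI 1. The peak 12.6 kb before the gene, close to the minimum level, held 2.14, 3.70 and 3.33 in GFI1-KD, against 10.13, 19.3 and 21.9 in GFI1-KI. Those GFI1-KD values rest on 2, 3 and 3 reads, the log2 fold change was -2.11 ± 0.47 (SE), and the call was lost without GFI1-KI 2 or GFI1-KI 3.

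The other blood and immune genes had few calls. Ppm1k, the mitochondrial phosphatase that switches on branched-chain amino acid breakdown, had the strongest peak of the list over its start. It held 1145, 987 and 1107 normalized reads in GFI1-KD, against 1137, 1123 and 1115 in GFI1-KI, with overlap and a log2 fold change of -0.06. None of its 8 peaks was called, although 7 were below 0. Herc6, a ubiquitin ligase family member that attaches ISG15 in mice, had 1 of 7 peaks called lower. Nt5c3, a pyrimidine nucleotidase of red cells, had 1 of 10 called lower and a median of 0.10. A strong peak over the upstream edge of Nt5c3 was assigned to Vmn1r4 and is not among these 10.

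Among 13 genes of general cell functions, 87 peaks were present, of which 17 were called lower, 3 higher and 67 neither. Their median was -0.23. By share, 19.5% were called lower and 3.4% higher, against 20.0% and 3.8% over the stretch. The densest calls were at Vopp1 and Lancl2, which lie next to each other. Vopp1 encodes a membrane protein of endosomes and lysosomes, and 5 of its 13 peaks were called lower, with 11 below 0. Its start peak (chr6:57824311-57825307) held 472, 458 and 537 normalized reads in GFI1-KD, against 582, 669 and 702 in GFI1-KI, a log2 fold change of -0.41. Inside the gene the peak from 57770515 to 57770818 held 87.7, 91.3 and 136 in GFI1-KD, against 231, 205 and 208 in GFI1-KI, a log2 fold change of -1.05. The genotypes did not overlap at either peak. Lancl2, a member of the LanC-like family, had 8 of 8 peaks below 0 and 3 called lower, with values from -0.91 to -0.02.

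Mindy4, a deubiquitinase gene that lies just before Aqp1, had 9 of 11 peaks below 0 and 3 called lower. One of the strongest lower peaks of the stretch lay inside it, at chr6:55276542-55277278, with 264, 255 and 264 normalized reads in GFI1-KD, against 491, 579 and 490 in GFI1-KI. The GFI1-KD libraries were nearly equal and all lay well below the lowest GFI1-KI value, and the log2 fold change was -0.99 ± 0.10 (SE). A weak peak of the same gene, from 55282145 to 55282341, had a log2 fold change of -1.51. Its call was lost without GFI1-KI 2 and without the variance trend. By contrast, the peaks over the starts of Mindy4 (-0.09) and of Gars, the glycyl-tRNA synthetase (-0.10), were not called, and all 6 Gars peaks lay between -0.17 and -0.01. A further peak within 1 kb of the Mindy4 start, from 55203620 to 55203920, was not called either (-0.38). The genotypes did not overlap there, with lower values in GFI1-KD.

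Herc3, another ubiquitin ligase gene, had a median of -0.08 over 10 peaks but held a pair of weak peaks with large differences. The one from 58890049 to 58890278 held 8.56, 4.94 and 6.65 normalized reads in GFI1-KD, against 19.1, 42.1 and 34.0 in GFI1-KI, a log2 fold change of -2.04. The other, from 58880990 to 58881235, had -1.73. Fkbp9, a protein-folding isomerase of the endoplasmic reticulum, had peaks called in both directions. Inside it, the peak from 56854844 to 56855168 held 21.4, 19.7 and 25.5 in GFI1-KD, against 67.6, 54.3 and 77.0 in GFI1-KI (-1.53), whereas a peak 10.5 kb before it held 14.98, 19.7 and 18.8 in GFI1-KD, against 4.50, 4.38 and 3.78 in GFI1-KI (1.85). The genotypes were apart in all of these peaks.

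Avl9, named after a yeast gene of the late secretory pathway, held both the strongest peak of the stretch and the largest difference in it. Its start peak (chr6:56714571-56715600) held 1478, 1296 and 1379 normalized reads in GFI1-KD, against 1586, 1682 and 1644 in GFI1-KI, with no overlap. Its log2 fold change was -0.24 ± 0.06 (SE). Its call was lost without GFI1-KI 2 or GFI1-KI 3, without the variance trend and with DESeq2. Near the far end of the same gene, the peak at chr6:56757899-56758224 held 87.7, 104 and 98.7 in GFI1-KD, against 4.50, 2.63 and 1.51 in GFI1-KI. The GFI1-KI values rest on 4, 3 and 2 reads, so this peak was close to closed in GFI1-KI and open in all 3 GFI1-KD libraries. Its log2 fold change of 4.72 ± 0.31 (SE) is the largest of the stretch in either direction, and 5 other Avl9 peaks were not called.

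**Figure D5:**
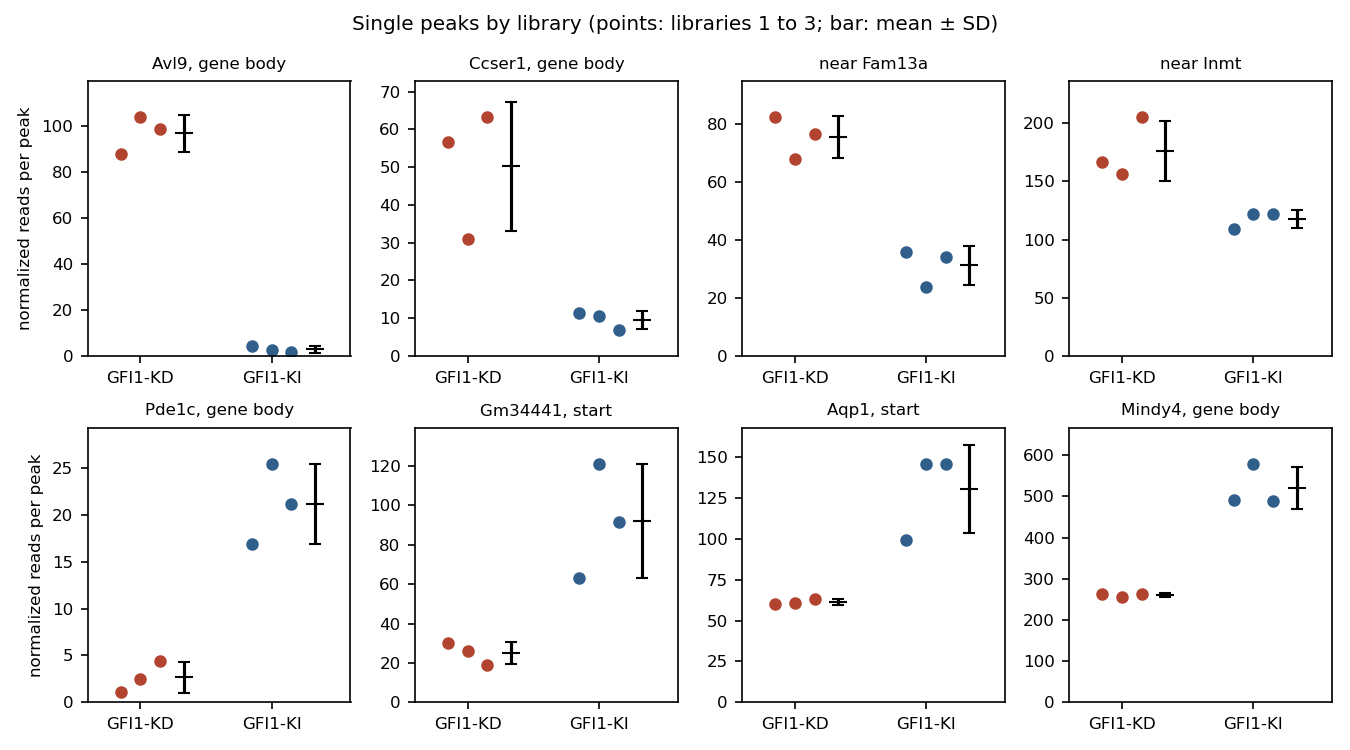
Normalized reads per peak in each library for 8 peaks, with GFI1-KD at left and GFI1-KI at right in each panel; points are libraries 1 to 3 and bars are the mean ± SD (n = 3), and every vertical axis starts at 0. The 4 peaks of the upper row (Avl9, Ccser1, near Fam13a, near Inmt) were higher in all GFI1-KD libraries and the 4 of the lower row (Pde1c, Gm34441, Aqp1, Mindy4) were lower in all of them.

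A list of 13 genes was drawn up mostly from nerve and hormone genes, which have no known main role in GMPs. It also holds Ccser1, Itprid1 and Inmt, which do not clearly belong to that class. The list held 97 peaks, of which 19 were called lower, 5 higher and 73 neither, with a median of -0.39. By share, 19.6% were called lower and 5.2% higher, against 20.0% and 3.8% over the stretch. The receptor genes lie in the first Mb. Adcyap1r1, the receptor of the neuropeptide PACAP, had 13 of 14 peaks below 0 and 3 called lower. Assigned to it from 35.1 kb away is the peak at chr6:55536505-55537098, which lies over the start of the predicted gene Gm34441 shown above. It held 30.0, 25.9 and 18.8 normalized reads in GFI1-KD, against 63.1, 121 and 91.4 in GFI1-KI, a log2 fold change of -1.82 ± 0.23 (SE). The highest GFI1-KD value was below the lowest GFI1-KI value, and the call was held in all leave-out fits.

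At Ghrhr, the receptor of growth hormone-releasing hormone, 5 of 5 peaks were below 0 and 1 was called lower, 5.2 kb from the gene. It held 9.63, 7.41 and 9.98 normalized reads in GFI1-KD, against 14.6, 46.5 and 24.9 in GFI1-KI (-1.43). The call was lost without GFI1-KI 2 or GFI1-KI 3, which were the higher of the GFI1-KI libraries, and without the variance trend. Crhr2, a receptor of corticotropin-releasing hormone, had 4 peaks and none called. Neurod6, a transcription factor of neurons, had 4 peaks from -1.10 to -0.56, of which 1 was called lower, 29.7 kb away. It held 56.7, 38.3 and 53.2 in GFI1-KD, against 98.0, 99.9 and 96.7 in GFI1-KI, with the GFI1-KI libraries close together. Further on, more than 50 kb from any protein-coding gene, the peak at chr6:55731298-55731797 held 89.9, 76.5 and 88.7 in GFI1-KD, against 193, 273 and 325 in GFI1-KI, a log2 fold change of -1.59 ± 0.16 (SE).

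Itprid1 had 7 of 9 peaks below 0 and 1 called lower, inside the gene, with 7.49, 16.04 and 17.7 normalized reads in GFI1-KD, against 30.4, 43.8 and 39.3 in GFI1-KI (-1.46). Pde1c, a phosphodiesterase that is switched on by calmodulin, had 13 peaks with 3 called lower and 1 higher. The lowest value of the stretch was inside it, at chr6:56551132-56551329, where GFI1-KD held 1.07, 2.47 and 4.43, against 16.9, 25.4 and 21.1 in GFI1-KI. The GFI1-KD values rest on 1, 2 and 4 reads, and the log2 fold change was -2.69 ± 0.47 (SE). Further on in the same gene, a peak from 56616029 to 56616243 held 19.3, 28.4 and 28.8 in GFI1-KD, against 3.38, 8.76 and 7.55 in GFI1-KI (1.87). Both are weak peaks in which the genotypes did not overlap, and they differ in direction within 1 gene.

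Ccser1, a very long gene, had the most peaks of any gene, 22, with 4 called lower and 1 higher. The higher peak, from 61321753 to 61322058, held 56.7, 30.9 and 63.2 normalized reads in GFI1-KD, against 11.3, 10.5 and 6.80 in GFI1-KI, a log2 fold change of 2.25 ± 0.30 (SE). Before it in the same gene, a peak from 61295544 to 61295724 held 7.49, 3.70 and 6.65 in GFI1-KD, against 15.8, 25.4 and 14.3 in GFI1-KI (-1.49). The higher peak had no overlap and was called in every leave-out fit, whereas the lower one was lost without GFI1-KD 2, GFI1-KI 2 or GFI1-KI 3. The lower one was also lost without the variance trend. The start peak of Ccser1, which also covers the start of A730020E08Rik on the other strand, had -0.40 and was called lower.

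Atoh1, a transcription factor of the inner ear and cerebellum, had 5 of 5 peaks below 0, with 2 called lower. The strongest of these, 0.7 kb before Atoh1 (chr6:64727676-64728398), held 144, 114 and 109 normalized reads in GFI1-KD, against 191, 184 and 140 in GFI1-KI. GFI1-KD 1 was above GFI1-KI 3 there, and the log2 fold change was -0.49 ± 0.15 (SE).

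Gprin3, a gene named for neurite outgrowth and G protein signalling, stood apart from the other genes with 5 or more peaks, since none of its 8 peaks was below 0. They ran from 0.00 to 0.98 with a median of 0.60, and the genotypes did not overlap in 5 of them, all higher in GFI1-KD. The called peaks were both outside the gene, at 24.99 and 32.6 kb from its start. The farther held 270, 265 and 286 normalized reads in GFI1-KD, against 186, 164 and 128 in GFI1-KI (0.79), and the nearer held 69.5, 53.1 and 57.7 in GFI1-KD, against 47.3, 27.2 and 20.4 in GFI1-KI (0.98). The start peak (chr6:59425937-59426944) held 736, 763 and 744 in GFI1-KD, against 670, 663 and 634 in GFI1-KI. Its log2 fold change of 0.19 ± 0.07 (SE) was not called, but it was called by edgeR and with other scalings of the libraries. The call of the nearer outside peak was lost without GFI1-KI 2 or GFI1-KI 3, and without the variance trend.

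Further genes had calls higher in GFI1-KD near them. A peak 4.4 kb from Fam13a, a gene linked to lung disease in human genetics, held 82.4, 67.9 and 76.5 normalized reads in GFI1-KD, against 36.0, 23.7 and 34.0 in GFI1-KI. It had no overlap, and its log2 fold change was 1.27 ± 0.20 (SE). A peak 3.2 kb from Inmt, a methyltransferase of indole amines, held 167, 157 and 205 in GFI1-KD, against 109, 122 and 122 in GFI1-KI (0.57). Its call was lost without GFI1-KD 3, the highest library, and without the variance trend. The remaining 2 of the 10 higher calls were weak peaks 9.1 and 11.8 kb from the predicted gene Gm10209, at 1.33 and 0.94. No annotated gene start had a peak called higher.

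Vomeronasal receptors, which sense pheromones in the nose, form the largest gene family of the stretch, with 28 genes. Peaks were assigned to 7 of them, 10 peaks in all, with 2 called lower and 0 higher, and 21 genes had none. The share called lower was 20.0%, the same as over the stretch. Both called peaks overlap the annotated Vmn1r4, so they were assigned to it. Nt5c3 is on the minus strand, and the stronger peak also covers the upstream edge of its annotated body, at 56924008. The gene these peaks belong to is therefore uncertain. The stronger (chr6:56923390-56924381) held 938, 801 and 939 normalized reads in GFI1-KD, against 1034, 1066 and 1049 in GFI1-KI (-0.24), and the weaker, from 56934381 to 56934698, held 12.8, 9.87 and 6.65 in GFI1-KD, against 45.04, 28.9 and 14.3 in GFI1-KI (-1.40). At both, GFI1-KD was below GFI1-KI in every library, but both calls were lost without GFI1-KD 3, without GFI1-KI 2, in further leave-out fits and without the variance trend. The call of the stronger was also lost with median-of-ratios scaling, edgeR and DESeq2.

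The minimum of 10 decided few peaks. Just inside it were peaks at Pde1c (mean 10.06), Mmrn1 (10.08) and Ppp1r17 (10.3), with log2 fold changes of -0.76, -2.11 and 0.14. Just outside it were a peak inside Mmrn1 (9.94), which held 4.28, 11.1 and 12.2 normalized reads in GFI1-KD and 14.6, 11.4 and 6.04 in GFI1-KI, a peak far from any gene (9.69) and another inside Pde1c (9.59). Some weak peaks with large differences passed the minimum only through the genotype in which they were high. Among them were that before Mmrn1 (means 3.06 in GFI1-KD and 17.1 in GFI1-KI) and that before Fkbp9 (17.9 and 4.22). Their fold changes are therefore in part selected by the minimum.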

How the data were processed

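ATAC-seq signal was deposited by the authors as normalized read counts per consensus peak. The build is mm10 and the tools are BWA, ChIPseeker, DiffBind, HOMER, MACS2, Picard, SAMtools and Trim Galore, without versions or roles, per the submitters' processing notes. A shift of reads for the offset of Tn5 cuts is not given in the sources used here. Columns named WT were taken as GFI1-KI 1 to 3, since the series title calls that genotype wild type and the numbers match. Dividing each library's values by its smallest step gave whole reads (100% within 0.01 reads); 3 reads equal 2.27 to 3.70 normalized reads.

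The test of GFI1-KD against GFI1-KI was limma 3.58.1 under R 4.3.3, with the variance trend, without a replicate block and on values as log2(value + 1), over all 170733 peaks with a mean of at least 10, with Benjamini-Hochberg adjusted p under 0.05 called. The fit was tested on simulated data. Genes and starts came from RefSeq on GRCm38.p6. Alternatives were edgeR 4.0.16 and DESeq2 1.42.0 on recovered reads, other scalings, pseudocounts, filters, thresholds and edges, a replicate block, and each library left out. Figures used Python 3.11.15, pandas 2.3.3 and matplotlib 3.10.9.

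The peaks named are those with the 12 lowest and 8 highest fold changes without overlap (1 per gene and direction, predicted genes left out), those at Mmrn1, the strongest of each of 4 role lists, and 3 on either side of the minimum. Other peaks in the text were picked with their values in view. The stretch, the lists and the rule were chosen with earlier results of these data known. Of the listed genes, Nod1, Smarcad1, Hpgds, Ggct, Rp9, Pigy and Znrf2 were dropped, since they were not annotated within the stretch. Peaks named by the rule at some genes are not reported here.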

Additional observations from a re-analysis of the deposited data

How the results depend on the processing

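Lower calls outnumbered higher calls under every setting run, and the median stayed below 0. Under a minimum mean of 50, 32 peaks were called (4 higher, 28 lower), in a smaller set of 75 peaks, against 12128 of all 79435. Without the variance trend 21 were called (5 higher, 16 lower), with DESeq2 35 (7 higher, 28 lower), at an adjusted p under 0.01 35 (7 higher, 28 lower) and with at least a 2-fold difference 29 (6 higher, 23 lower). Calls over all peaks also fell, from 17872 in the main fit to 2581, 10772, 6896 and 4843 in the same order. From 54 to 64 Mb, 17 peaks were called higher and the median was -0.187. Leaving out 1 library gave 32 to 71 calls in the stretch, 7 to 14 higher and 25 to 57 lower, against 6996 to 22129 over all peaks. Medians were -0.333 to -0.261, and ratios of read shares were 0.862 to 0.893. Except where a setting itself holds fewer peaks or samples, the cause was not tested. With the replicate block 65 were called (11 higher, 54 lower), against 18940 over all peaks. The labels do not say that a number marks a shared litter or day. Deviations of same-numbered libraries correlated at -0.024, -0.038 and 0.056, against -0.061 to 0.085 for libraries of unlike number. Such values over all peaks cannot settle whether same-numbered libraries share a litter or day. For the 31 named peaks, 458 of 508 values kept their direction and call, 41 lost the call, 7 gained one and 2 turned: the Mmrn1 peak at 60986032 to 0.057 without GFI1-KD 3 (-0.634 to 0.057 over the left-out libraries), and the Ppm1k start peak to 0.001 without GFI1-KD 2 (-0.106 to 0.001). Assigning peaks to the nearest gene end gave 214 a gene, and 220 of 260 kept the same assignment. Of the 84 peaks with a mean of 10 to 20, 16.7% were called, against 4.9% of all peaks at that level, and the part of depth was not tested. Floors cover counting error only.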
